A study of Caenorhabditis elegans with 8 samples.

Results

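The genes described here are 10 Caenorhabditis elegans genes that build the eggshell, chosen by name: cbd-1, perm-2, perm-4, egg-1, egg-2, chs-1, cpg-1, cpg-2, cpg-3 and mbk-2. All 10 were found in the deposited table of 17826 genes, and all 10 were among the 12382 genes that passed the filter on low values. They were measured by sequencing of polyadenylated RNA from whole worms, in 4 libraries of worms given 50 µM zidovudine and 4 libraries of worms given the DMSO vehicle. Zidovudine is an antiretroviral thymidine analogue. All worms were of the wild-type strain N2, were exposed for 24 h starting at larval stage 4, and were harvested on day 1 of adulthood. The plates of both groups are described as also holding 5-fluorouracil, a pyrimidine analogue, so every comparison is between zidovudine and DMSO in its presence. Each sample was a pool of many worms. The labels leave unsaid whether the samples were separate cultures, and the p-values reflect only how far these samples differed.

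The eggshell of the nematode is laid down around the fertilized egg in layers, each needed for the next. The outermost vitelline layer is assembled on the oocyte surface before fertilization, a chitin layer is made beneath it once the sperm has entered, and a layer of chondroitin proteoglycans released from cortical granules follows. The proteins and their mRNAs are made in the germ line and stored in the oocyte, and the kinase MBK-2 ties this surface programme to the cytoplasmic changes of the oocyte-to-embryo transition. The assay reads whole worms, in which fewer oocytes and less mRNA per oocyte cannot be told apart.

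No eggshell gene differed between zidovudine and DMSO beyond the spread between libraries. None of the 10 passed limma-trend at an adjusted p under 0.05, where 0.17% of all tested genes passed (21 of 12382). None reached an unadjusted p under 0.05 either, against 11.8% of all tested genes, and none did so with voom on recovered reads. In no gene did the 4 zidovudine libraries lie wholly on one side of the 4 DMSO libraries, as happened for 6.65% of all tested genes. The log2 difference, zidovudine minus DMSO, was above 0 in 8 genes and below 0 in 2, where 52.3% of all tested genes were above 0. The 10 genes had a median difference of 0.056, beside a median of 0.0082 over all tested genes. Across the 10 genes the 95% intervals ran from -0.22 to 0.33 on the log2 scale. The outermost limits correspond to a 1.17-fold decrease and a 1.26-fold increase. They are limits of single genes in the main fit, not adjusted for reading 10 of them. Other settings, given at the end, moved the estimates themselves.

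**Figure D1:**
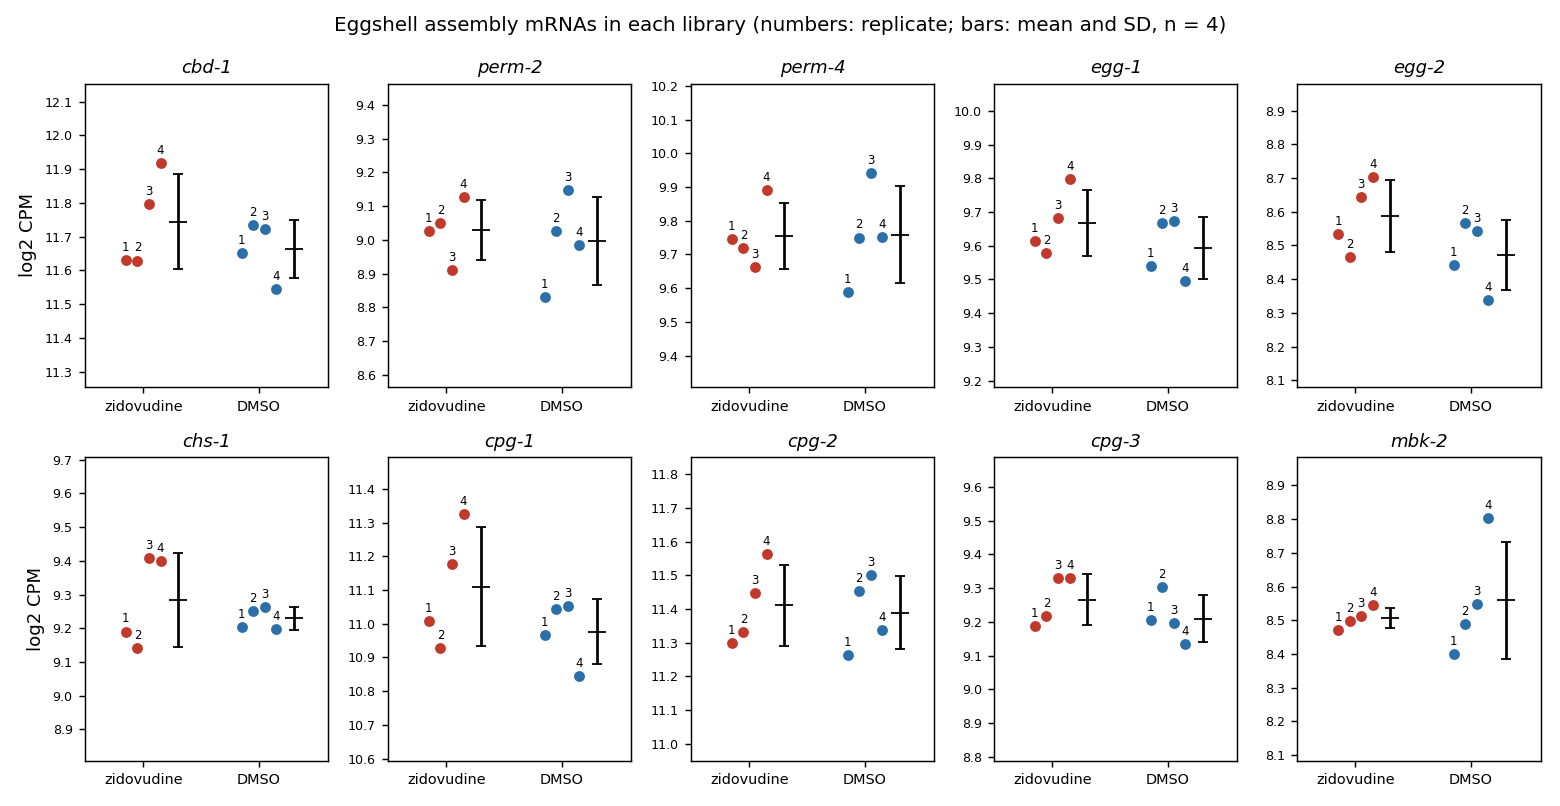
Log2 CPM of the 10 eggshell genes in each library, with zidovudine in red and DMSO in blue; each point is 1 library labelled by its replicate number, and the bars are the mean and SD of 4 libraries. The groups overlap in every panel, and each panel spans the same distance on the log2 axis.

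The libraries held 30449021 to 56930820 reads assigned to genes. The least covered eggshell gene in any library still had 11211 reads, so counting error was small beside the differences between libraries. DMSO 4 came from a flow cell of its own, apart from the remaining 7 libraries, and 8.24% of its genes had 0 reads, against 1.07% to 2.17% elsewhere. That flow cell and that library cannot be told apart. For the eggshell genes, values without DMSO 4 are given where they change a direction. The lists of other genes were read with all 8 libraries only, and small differences in them can depend on DMSO 4. The 20 listed oocyte markers each had at least 2743 reads in every library, among them the yolk receptor gene rme-2 and the maturation factor genes oma-1 and oma-2. Read from whole worms, these mRNAs are not a measure of oocytes alone.

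The eggshell genes were among the most abundant mRNAs of these worms. Together they took 1.17% to 1.36% of the assigned reads in the zidovudine libraries and 1.13% to 1.27% in the DMSO libraries. By mean log2 CPM, cbd-1 ranked 8, cpg-2 ranked 10 and cpg-1 ranked 19 among the 12382 tested genes, and the least abundant of the 10, egg-2, ranked 400. Long mRNAs collect more reads, so levels between genes were compared per kb of exon, as log2 of CPM per kb over all 8 libraries. On that scale cpg-2 was first at 10.61, followed by cpg-1 at 10.13, cbd-1 at 9.63, perm-4 at 9.61, perm-2 at 9.46, cpg-3 at 9.20, egg-1 at 8.79, egg-2 at 7.71, chs-1 at 7.15 and mbk-2 at 6.26. The mRNAs of structural vitelline and proteoglycan layer proteins thus stood above those of the surface receptors, the chitin synthase and the kinase. With mbk-2 taken as last, the span from first to last was 20.5-fold. Neighbours in this order had separate ranges over the 8 libraries except for 3 pairs. cbd-1 and perm-4 could not be ordered, since cbd-1 was the higher in only 4 of 8 libraries. perm-4 overlapped perm-2, and perm-2 overlapped cpg-3, although the first of each pair was higher within all 8 libraries. The mbk-2 value divides by the union of exons of 14 annotated transcripts, more than any 1 mRNA holds, and so understates its level per length. That union is 4843 nt, where its longest coding sequence is 2451 nt. The place of mbk-2 below chs-1 and the 20.5-fold span are therefore not settled.

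**Figure D2:**
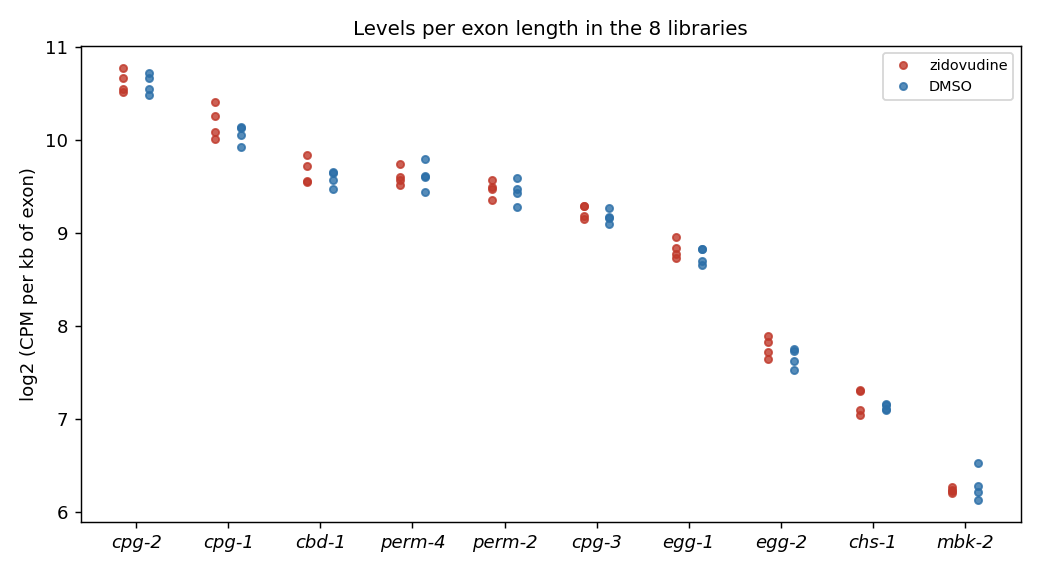
Log2 of CPM per kb of exon for the 10 genes in order of their mean, with each of the 4 zidovudine libraries (red) and 4 DMSO libraries (blue) as a point. The order from cpg-2 at 10.61 to mbk-2 at 6.26 is far wider than the scatter between libraries of any gene. The mbk-2 value is understated, since it divides by the joined exons of all its annotated transcripts.

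The vitelline layer genes come first in assembly. cbd-1 (WBGene00010351; chromosome IV, 11372991 to 11377627, plus strand, WBcel235) encodes a chitin-binding protein of 1319 residues that anchors the oocyte's surface complex. Its log2 CPM was 11.63, 11.63, 11.80 and 11.92 in zidovudine 1 to 4, against 11.65, 11.73, 11.72 and 11.55 in DMSO 1 to 4. Zidovudine 3 and 4 lay above every DMSO library, while zidovudine 1 and 2 fell inside the DMSO range. The log2 difference was 0.080 (SE 0.089, 95% interval -0.11 to 0.27, limma adjusted p = 0.728). It was 0.0045 with each library's trend on gene length removed and 0.022 without zidovudine 4.

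perm-2 (WBGene00016636; chromosome IV, 1126790 to 1128865, plus strand) and perm-4 (WBGene00016638; chromosome IV, 1121494 to 1125107, minus strand) encode small proteins of 203 and 331 residues that are held in the vitelline layer and are needed for an impermeable egg. The genes are neighbours that point away from each other, with 1682 bp and no protein-coding gene between them. perm-2 was at 9.03, 9.05, 8.91 and 9.13 log2 CPM in zidovudine 1 to 4, against 8.83, 9.03, 9.15 and 8.99 in DMSO 1 to 4. All 4 zidovudine values lay inside the DMSO range, whose ends were DMSO 1 and DMSO 3. The log2 difference was 0.031 (SE 0.077, 95% interval -0.13 to 0.19, limma adjusted p = 0.890). With the length trend removed it was 0.11 (limma adjusted p = 0.589); at 736 nt of exon, perm-2 is the shortest of the 10. It was -0.024 without DMSO 1. perm-4 was at 9.75, 9.72, 9.66 and 9.89 log2 CPM in zidovudine 1 to 4, against 9.59, 9.75, 9.94 and 9.75 in DMSO 1 to 4. The DMSO libraries again held both the highest and the lowest value. Its log2 difference was -0.0044 (SE 0.083, 95% interval -0.18 to 0.17, limma adjusted p = 0.989), and it ran from -0.061 without DMSO 1 to 0.057 without DMSO 3.

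egg-1 and egg-2 encode LDL receptor repeat proteins that span the oocyte membrane and are required both for the sperm to enter and for the cortical complex that starts chitin synthesis. egg-1 (WBGene00015083; chromosome III, 5728180 to 5730159, plus strand, 551 residues) and egg-2 (WBGene00019811; chromosome III, 7058527 to 7060583, minus strand, 548 residues) are close paralogs 1328367 bp apart, so reads can be shared between them and their separate values are less certain than their joint behaviour. egg-1 was at 9.61, 9.58, 9.68 and 9.80 log2 CPM in zidovudine 1 to 4, against 9.54, 9.67, 9.67 and 9.49 in DMSO 1 to 4. The groups overlapped, with zidovudine 4 highest and DMSO 4 lowest. Its log2 difference was 0.075 (SE 0.074, 95% interval -0.083 to 0.23, limma adjusted p = 0.698), and 0.031 without zidovudine 4. egg-2 was at 8.54, 8.47, 8.64 and 8.70 log2 CPM in zidovudine 1 to 4, against 8.44, 8.57, 8.54 and 8.34 in DMSO 1 to 4. Zidovudine 3 and 4 were above all DMSO libraries and zidovudine 1 and 2 were not. Its log2 difference was 0.11 (SE 0.073, 95% interval -0.042 to 0.27, limma adjusted p = 0.556).

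chs-1 (WBGene00000496; chromosome I, 7554855 to 7559916, plus strand) encodes the chitin synthase of the eggshell, a membrane enzyme of 1322 residues. Its log2 CPM was 9.19, 9.14, 9.41 and 9.40 in zidovudine 1 to 4, against 9.20, 9.25, 9.26 and 9.20 in DMSO 1 to 4. The zidovudine libraries fell on both sides of the DMSO libraries, with 2 above all of them and 2 below all of them. The spread was accordingly 0.14 with zidovudine and 0.034 with DMSO (SD, n = 4 each). The log2 difference was 0.056 (SE 0.075, 95% interval -0.10 to 0.21, limma adjusted p = 0.781), and it was -0.022 with the trend on gene length removed and 0.015 without zidovudine 3.

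CPG-1 and CPG-2 are chitin-binding chondroitin proteoglycans that can stand in for each other in the embryo. cpg-1 (WBGene00000465; chromosome III, 4489359 to 4491392, plus strand, 584 residues) was at 11.01, 10.93, 11.18 and 11.33 log2 CPM in zidovudine 1 to 4, against 10.97, 11.04, 11.05 and 10.84 in DMSO 1 to 4. Zidovudine 3 and 4 exceeded all DMSO libraries, zidovudine 1 and 2 did not, and DMSO 4 was the lowest. The log2 difference was 0.13 (SE 0.093, 95% interval -0.065 to 0.33, limma adjusted p = 0.588), a 1.10-fold difference, and it was 0.062 without zidovudine 4. cpg-2 (WBGene00015102; chromosome III, 7102092 to 7103990, minus strand, 524 residues) was at 11.30, 11.33, 11.45 and 11.56 log2 CPM in zidovudine 1 to 4, against 11.26, 11.45, 11.50 and 11.34 in DMSO 1 to 4. Only zidovudine 4 lay outside the DMSO range. Its log2 difference was 0.022 (SE 0.087, 95% interval -0.16 to 0.21, limma adjusted p = 0.940), and it was -0.029 without zidovudine 4.

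cpg-3 (WBGene00011063; chromosome I, 7244937 to 7246295, plus strand) encodes a further chondroitin proteoglycan, of 292 residues. It was at 9.19, 9.22, 9.33 and 9.33 log2 CPM in zidovudine 1 to 4, against 9.21, 9.30, 9.20 and 9.13 in DMSO 1 to 4. Zidovudine 3 and 4 were just above DMSO 2, the highest DMSO library. The log2 difference was 0.056 (SE 0.068, 95% interval -0.088 to 0.20, limma adjusted p = 0.750), and 0.031 without DMSO 4. It varied least of the 10 within groups (SD 0.072), and 9.20% of tested genes varied less.

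mbk-2 (WBGene00003150; chromosome IV, 13009158 to 13035961, plus strand) encodes a DYRK family kinase that is held at the cortex of the oocyte and, once released, marks maternal proteins such as OMA-1 and the katanin subunit MEI-1 for destruction. Its log2 CPM was 8.47, 8.50, 8.51 and 8.54 in zidovudine 1 to 4, against 8.40, 8.49, 8.55 and 8.80 in DMSO 1 to 4. The zidovudine libraries lay close together inside the DMSO range, and DMSO 4 stood above all others. The log2 difference was -0.053 (SE 0.079, 95% interval -0.22 to 0.11, limma adjusted p = 0.802), and it was 0.028 without DMSO 4, the library from the other flow cell, and -0.14 with the length trend removed (limma adjusted p = 0.502).

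**Figure D3:**
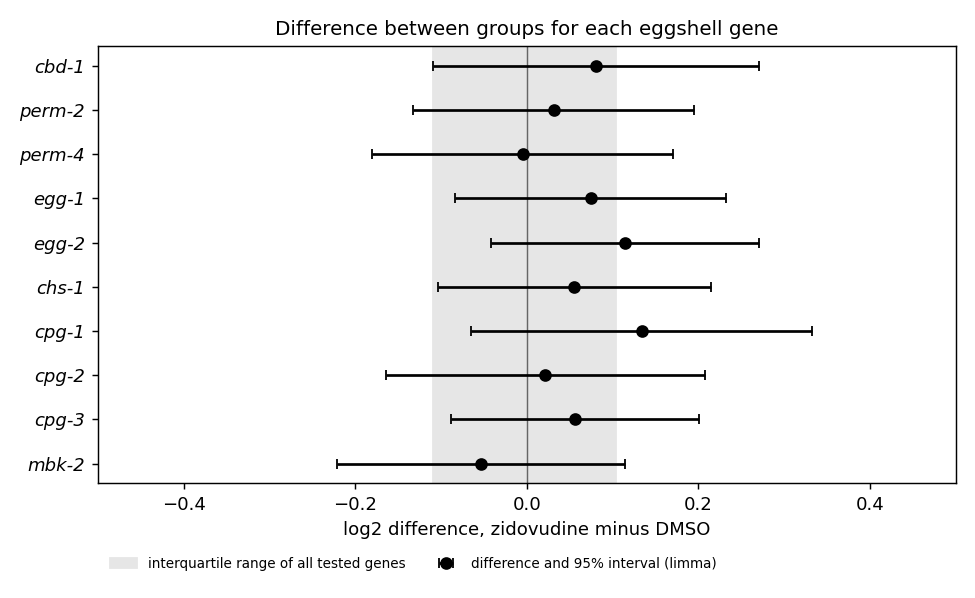
Log2 difference, zidovudine minus DMSO, for each of the 10 genes (points) with its 95% interval from limma (bars); the grey band is the interquartile range of all 12382 tested genes, from -0.11 to 0.10. Every interval includes 0, and the points run from -0.053 for mbk-2 to 0.13 for cpg-1.

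Ratios within a library cancel a change shared by both genes of a pair, and 3 pairs were compared. egg-1 exceeded egg-2 by 1.08, 1.11, 1.04 and 1.09 on the log2 scale in zidovudine 1 to 4, against 1.10, 1.10, 1.13 and 1.15 in DMSO 1 to 4, which is a ratio between 2.05 and 2.23 in every library. The difference in log2 ratio was -0.040 (exact two-sided permutation p = 0.114, 0.171 adjusted over the 3 pairs). cpg-1 minus cpg-2 was -0.29, -0.40, -0.27 and -0.24 in zidovudine 1 to 4, against -0.30, -0.41, -0.45 and -0.49 in DMSO 1 to 4, so that cpg-2 gave more reads in all 8 libraries. The zidovudine libraries had the smaller gap, apart from zidovudine 2, with a difference in log2 ratio of 0.11 (exact two-sided permutation p = 0.0571, 0.171 adjusted over the 3 pairs). perm-2 minus perm-4 was -0.72, -0.67, -0.75 and -0.76 in zidovudine 1 to 4, against -0.76, -0.72, -0.79 and -0.77 in DMSO 1 to 4. Its difference in log2 ratio was 0.036 (exact two-sided permutation p = 0.200, also 0.200 adjusted over the 3 pairs). It was 0.11 with the length trend removed (exact two-sided permutation, adjusted p = 0.0857) and 0.017 without zidovudine 2. With 4 libraries against 4 the smallest p this test can give is 0.0286, and none of the 3 ratios passed.

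Libraries that were high or low for an eggshell gene were often so for several of them, within either group. Zidovudine 4 was the highest zidovudine library for 9 of 10 genes and the highest of all 8 for 6. DMSO 4 was the lowest of all libraries for 5 genes and DMSO 1 for 4. Over all 10 genes the average deviation from a gene's own mean was -0.039, -0.055, 0.046 and 0.15 in zidovudine 1 to 4, against -0.10, 0.018, 0.049 and -0.067 in DMSO 1 to 4. The 7 genes other than perm-2, perm-4 and mbk-2, a grouping made after the values were seen, deviated from their own means by an average of -0.048, -0.073, 0.097 and 0.18 in zidovudine 1 to 4, against -0.076, 0.031, 0.021 and -0.13 in DMSO 1 to 4. The 20 oocyte markers deviated by an average of -0.036, -0.039, 0.078 and 0.17 in zidovudine 1 to 4, against -0.099, 0.037, 0.027 and -0.14 in DMSO 1 to 4. Both the eggshell genes and the oocyte markers were thus highest in zidovudine 4, and the part of the oocyte share in the eggshell values was not tested.

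perm-2 and perm-4 shared a profile that departed from that of cbd-1 in some libraries. In zidovudine 3 they deviated by -0.10 and -0.095, where cbd-1, the other vitelline layer gene, deviated by 0.093. In DMSO 3 they deviated by 0.13 and 0.19, where cbd-1 deviated by 0.020. As a description of all 45 pairs among the 10 genes, the within-group SD of the log2 ratio was smallest for egg-1 with egg-2 (0.029), then cbd-1 with cpg-1 (0.034) and perm-2 with perm-4 (0.036). It was largest for cpg-1 with mbk-2 (0.21). Reads can be shared between the paralogs egg-1 and egg-2, and the part of this in their small SD was not tested. mbk-2 was the member furthest from the common profile, with a root-mean-square difference of 0.13 on the log2 scale from the mean of the 10 genes, beside a median of 0.15 over the other genes compared. Its value in DMSO 4, 0.27 above its own mean, goes against the other genes, of which all 9 were below their means there.

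**Figure D4:**
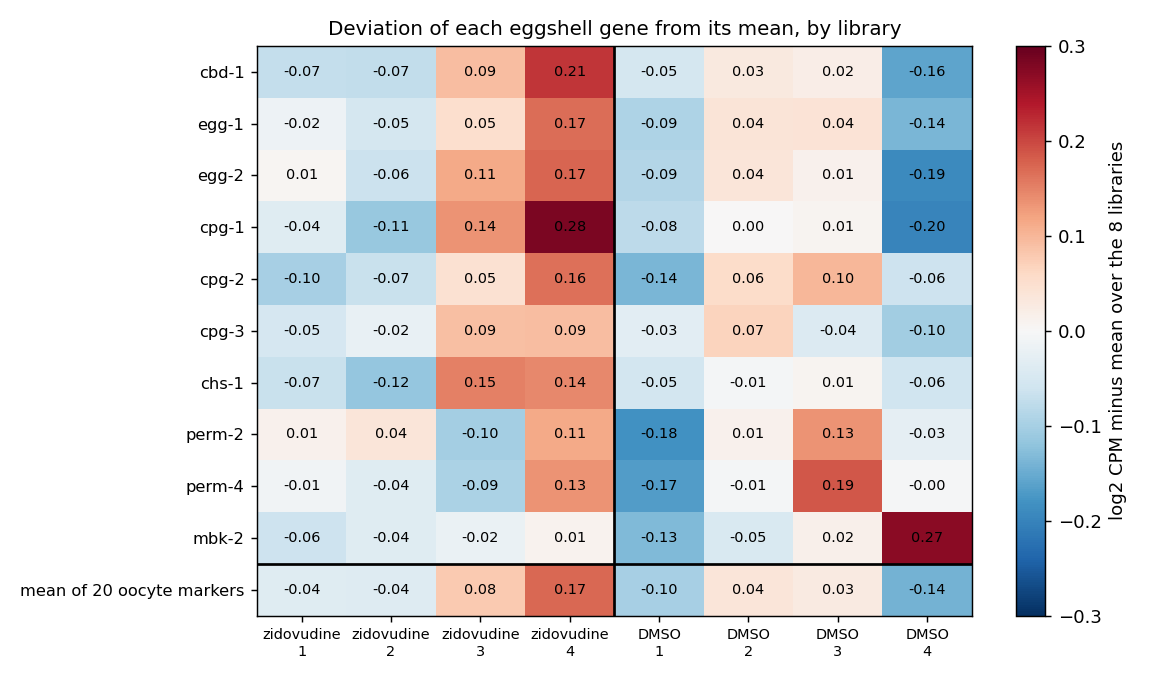
Log2 CPM minus the mean over the 8 libraries for each eggshell gene, and the average of the same over 20 oocyte markers in the bottom line; columns are the zidovudine libraries and then the DMSO libraries. Zidovudine 4 is above 0 for all 10 genes, and DMSO 1 is below 0 for every gene, furthest for perm-2 and perm-4. In zidovudine 3 perm-2 and perm-4 share low values, and mbk-2 is the only gene above 0 in DMSO 4.

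The genes whose profile over the 8 libraries was most like the mean of the eggshell genes were sought among 10876 others averaging 1 log2 CPM or more, by the root-mean-square difference of centred log2 CPM. They were cyld-1 (0.015), ncx-1 (0.018), F53C11.4 (0.019), F25B5.5 (0.020), mex-6 (0.021) and rnp-8 (0.023). mex-6, which encodes a zinc finger protein of the early embryo, is also among the 20 oocyte markers. This measure is over 8 libraries that share their scaling, and it favours genes that vary little.

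Genes of related lists were also without a call. The lists include other chondroitin proteoglycan genes, chitinases and the pharyngeal chitin synthase, not only partners of the eggshell proteins. Of 66 tested genes in 7 related lists, none was higher and none lower at an adjusted p under 0.05, where 0.17% of all tested genes passed. An unadjusted p under 0.05 was reached by 4 of the 66, against 11.8% of all tested genes. Differences were above 0 in 49 and below 0 in 17, with a median of 0.059, where 52.3% of all tested genes were above 0. Of the 24 genes of egg activation and MBK-2 partners, 22 were above 0 (median 0.069). Their average deviation was lowest in DMSO 4, at -0.12, and the count was not repeated without that library. Of these 24, 4 are also among the 20 oocyte markers, so the 2 lists are not separate observations. Among the 24, the cortical scaffold gene egg-3, whose product binds CHS-1 and MBK-2, was at 7.90 ± 0.12 log2 CPM with zidovudine and 7.81 ± 0.10 with DMSO (SD, n = 4 each). The smallest p was that of meg-1, a P granule gene, at 7.73 ± 0.12 with zidovudine and 7.54 ± 0.089 with DMSO (SD, n = 4 each; log2 difference 0.19, SE 0.071, limma adjusted p = 0.310). egg-4 and egg-5, near-identical pseudophosphatase genes that restrain MBK-2, had log2 differences of 0.010 and 0.0084; egg-3, egg-4 and egg-5 were named after their values were seen.

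Enzymes that supply the chitin and chondroitin chains gave equally small values. Of 10 genes of the route to UDP-N-acetylglucosamine, the building block of chitin, 6 were above 0 and 4 below (median 0.024), and the smallest p was that of gfat-1, the first committed enzyme (log2 difference 0.18, SE 0.11, limma adjusted p = 0.541). Of 9 genes of chondroitin synthesis 7 were above 0 and 2 below (median 0.058), led by sqv-3, a galactosyltransferase gene (0.15, SE 0.073, limma adjusted p = 0.425). Of the permeability barrier list, 6 of 7 were above 0 (median 0.084), and the fatty acid synthase gene fasn-1 had the smallest p (0.16, SE 0.065, limma adjusted p = 0.370). Of 7 cortical granule traffic genes 4 were above 0 and 3 below (median 0.0015), with syx-4, a syntaxin gene, at -0.19 (SE 0.099, limma adjusted p = 0.484).

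The lists of other chondroitin proteoglycan genes and of chitinases also held no call. Of 12 further cpg names 8 were in the table and 6 were tested, with 2 above 0 and 4 below (median -0.054). The smallest p was that of cpg-24 (log2 difference 0.43, SE 0.20, limma adjusted p = 0.422). The lowest was cpg-9 at -1.07 (SE 0.64, limma adjusted p = 0.559), named after its values were seen, which ran from 2.16 to 4.79 log2 CPM with zidovudine and from 3.96 to 5.33 with DMSO. cht-1, a chitinase gene, was at 7.60, 7.42, 7.46 and 7.34 log2 CPM in zidovudine 1 to 4, against 7.21, 7.12, 7.29 and 7.16 in DMSO 1 to 4. Its groups did not overlap, but at a log2 difference of 0.26 (SE 0.067) it missed the threshold (limma adjusted p = 0.137). The chitin synthase of the pharynx, chs-2, was at 0.17 (SE 0.11) and the chitinase cht-3 at -0.053 (SE 0.065).

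Markers of the cells around the oocyte gave these values. All 20 oocyte markers were above 0, with log2 differences from 0.0054 to 0.16, a median of 0.090 and none past the threshold. Their average deviation was lowest in DMSO 4, at -0.14, and the count was not repeated without that library. The smallest p was that of oma-1 (0.16, SE 0.079, limma adjusted p = 0.440). Of the 14 sperm markers 10 were tested, of which 9 were below 0 and none passed (median -0.25), with msd-2 at -0.70 (SE 0.16, limma adjusted p = 0.111). An unadjusted p under 0.05 was reached by 4 of these 10, against 11.8% of all tested genes, and the groups did not overlap in 3, against 6.65% of all tested genes. The exception in sign was spe-41, named after its values were seen, at 0.38 (SE 0.11, limma adjusted p = 0.187). The 14 sperm markers had a summed level of 68.5 to 80.8 CPM in zidovudine libraries and 74.4 to 94.9 CPM in DMSO libraries, and spe-38 and spe-42 had 0 reads in at least 1 library. The 14 embryonic markers summed to 56.2 to 69.6 CPM with zidovudine and 55.4 to 61.8 CPM with DMSO, and 9 of 10 tested were above 0 (median 0.090); nhr-25 had the smallest p (0.46, SE 0.14, limma adjusted p = 0.215), and the endoderm gene regulators med-1 and med-2 had 0 reads in at least 1 library. The 9 somatic gonad markers summed to 668 to 780 CPM with zidovudine and 670 to 737 CPM with DMSO. A sum follows the most abundant of them. Log2 differences were above 0 in 6 and below 0 in 3 (median 0.034). The 9 markers deviated from their own means by an average of -0.11 to -0.012 with zidovudine and 0.043 to 0.082 with DMSO. That average did not overlap and was lower with zidovudine, although 6 of the 9 differences were above 0. Taken singly, 0 of the 9 genes had groups that did not overlap, against 6.65% of all tested genes. Each gene has the same weight in the average, so it follows the largest differences, those of sth-1 and fkh-6. An unadjusted p under 0.05 was reached by 3 of the 9, against 11.8% of all tested genes. These were sth-1 at -1.03 (SE 0.32, limma adjusted p = 0.235), fkh-6 at -0.63 (SE 0.23) and plc-1 at 0.24 (SE 0.11). Both sth-1 and fkh-6 were scarce. sth-1 averaged -0.19 log2 CPM with zidovudine and 0.83 with DMSO, and fkh-6 averaged 0.49 and 1.12. Read from whole worms, none of these lists is a measure of its cell type alone. The part of these cell types in the eggshell values was not tested.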

How the data were processed

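The authors deposited 1 table for 8 whole-worm libraries. Its columns are named CPM per the file headers, but the deposited values are log2 CPM with a small prior, since they run below 0 with a common floor of -4.39. Per the submitters' processing notes the tools, listed with no roles, were limma 3.40.6, edgeR 3.26.8, HTSeq 0.11.0, HISAT2 2.1.0, Trimmomatic 0.32 and FastQC. Build, annotation and strand setting: not given in the sources used here. Per the labels' protocols, mRNA was taken on oligo-dT beads and libraries were directional. Exons of perm-2, egg-1, cpg-3 and mbk-2 overlap an opposite-strand gene by 25, 42, 36 and 6 nt. Exons of chs-1 overlap a gene on the same strand by 5 nt.

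Minus the floor, linear values were whole multiples of 1 step per library (100% within 0.05 reads, up to 1000 reads), which gave the reads. The test was limma-trend (limma 3.58.1, R 4.3.3, robust, two-sided) on genes averaging 0 log2 CPM or more, adjusted by Benjamini and Hochberg over 12382 genes, with group as the only term and 6 residual degrees of freedom. The code was tested on simulated data. Ensembl release 115 (WBcel235) gave positions, exon lengths and protein lengths, matched on gene ID. The symbols of 11 genes, turned into dates in the table, were restored by gene ID. A replicate number was not used as a block. Alternatives were another normalization, variance model, filter, block, weights, left-out libraries, removal of a length trend, and voom on recovered reads with library totals as the scaling.

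Named genes were the 10 members, the member with the smallest p in each related list without a call, and the 6 genes of most similar profile. The text also names genes outside this rule, after their values were seen. They are egg-3, egg-4, egg-5, cpg-9, chs-2, cht-3, spe-41 and the markers rme-2, oma-2, spe-38, spe-42, fkh-6, plc-1, med-1 and med-2. Members and lists were chosen with earlier results of these data known. No sequences are shown, since no sequence table was used here.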

Additional observations from a re-analysis of the deposited data

How the results depend on the processing

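None of the 10 eggshell genes passed in any of 17 other settings (smallest adjusted p 0.286, limma). Their median difference kept its sign, between 0.020 and 0.088 with 1 library left out. In 156 of 170 gene and setting combinations a gene kept its sign, and cbd-1, egg-1, egg-2, cpg-1 and cpg-3 did so in every setting. The settings without trend, with another filter or with the replicate block leave every difference as it was, so they could not change a sign. perm-4 was at 0.027 with quantile normalization, 0.0052 without DMSO 4 and zidovudine 2, and 0.0075 with the length trend removed. With that trend removed chs-1 was at -0.022 and cpg-2 at -0.0076; without DMSO 4 and zidovudine 2 mbk-2 was at 0.031. Leaving out 1 library gave -0.024 to 0.081 for perm-2, -0.061 to 0.057 for perm-4, -0.029 to 0.059 for cpg-2 and -0.11 to 0.028 for mbk-2. The genes that kept their sign moved with 1 library left out: 0.022 to 0.12 for cbd-1, 0.031 to 0.10 for egg-1, 0.070 to 0.15 for egg-2, 0.062 to 0.19 for cpg-1 and 0.031 to 0.088 for cpg-3; chs-1 ran from 0.015 to 0.10. With the length trend removed cbd-1 was at 0.0045, perm-2 at 0.11, cpg-1 at 0.10 and mbk-2 at -0.14, so the order of the differences by size is not fixed. With quantile normalization the difference in log2 ratio was 0.019 for egg-1 to egg-2 and -0.0085 for perm-2 to perm-4. The second was 0.11 with the length trend removed and 0.017 to 0.048 with 1 library left out. That of cpg-1 to cpg-2 was 0.11 with quantile normalization (exact two-sided permutation, adjusted p = 0.643). It was also 0.11 with the length trend removed (exact two-sided permutation, adjusted p = 0.0857), and 0.086 to 0.15 with 1 library left out. With 1 library left out that test cannot reach 0.05. The cause of these sign changes was not tested.

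The calls among all tested genes, 21 here, numbered 13 with quantile normalization, 4 without trend, 148 with quality weights, 156 without DMSO 4 and zidovudine 2, and 4 (without DMSO 1) to 41 (without zidovudine 2) with 1 library left out. With the replicate number as a block they numbered 9. Same-numbered libraries did not deviate together (correlations of -0.32 to 0.14), and 2 of 8 libraries were closest to their own number. The weights, trend and filter settings do not apply to the ratios. With 11211 reads or more per eggshell gene and library, the spread between the 4 libraries of a group limits the intervals more than depth does.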
